A study of Mus musculus with 6 samples.

Results

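The genes described here are 35 genes of lipid metabolism, listed by pathway: 12 enzymes of cholesterol synthesis, 4 regulators of lipid synthesis, 13 genes of fatty acid synthesis, elongation and desaturation, and 6 genes of gland lipid, lipid storage and lipid uptake. Each gene was represented by its brightest probe set among those called Present on at least 3 of the 6 arrays, and 30 of the 35 genes met that rule, out of 11899 genes tested. Conjunctival epithelium of C57BL/6 mice aged 8 weeks was measured on Affymetrix arrays, with 3 arrays of Spdef +/+ mice and 3 of Spdef -/- mice. The factor encoded by Spdef belongs to the ETS family and acts in cells that secrete mucus. The labels describe the arrays as biological replicates, and each combined 1 male eye with 1 female eye. The 40% of the epithelium closest to the bottom of the fornix was laser-captured from sections 6 µm thick, so goblet cells and stratified epithelial cells of that zone were measured together. The labels name no promoter or Cre driver for the Spdef -/- genotype and no treatment of either group.

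Cholesterol is built from acetyl-CoA through mevalonate, isoprenoids and squalene, and the squalene ring is closed to lanosterol, which is then trimmed to cholesterol. When sterols are scarce in the endoplasmic reticulum, the SREBP transcription factors are released from their INSIG anchors and switch on the synthesis genes. When sterols are plentiful, oxysterols activate the LXR receptors, which raise cholesterol efflux genes. Fatty acids are made from the same acetyl-CoA, and the lids and ocular surface carry glands whose secreted wax and sterol esters form the lipid layer of tears.

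The signal of Spdef, the targeted gene, was 801, 689 and 587 on the Spdef +/+ arrays and 1.00, 3.62 and 2.94 on the Spdef -/- arrays, where it was Absent on all 3 (adjusted p = 0.000152, limma). The markers of goblet cells were nearly gone: the summed signal of Muc5ac, Muc5b, Tff1, Spdef and Foxa3 was 26502 to 31185 in Spdef +/+ and 202.3 to 270.3 in Spdef -/-. The summed signal of 5 conjunctival epithelial markers (Krt4, Krt13, Krt19, Muc4 and Pax6) was 40669 to 42099 and 48763 to 57558, with 3 of 5 higher, and that of 5 stromal markers was 25624 to 39013 and 16082 to 18989, with 4 of 5 lower. The neutrophil markers with a probe set (S100a8, S100a9, Csf3r and Ngp) summed to 281.2 to 340.5 and 3585 to 8822. The first 3 were called higher, and S100a8 and S100a9 made up most of the Spdef -/- sum. Csf3r met the detection rule through its Spdef -/- arrays alone, so its call is not taken as support for a rise. Ngp was not tested and was level, with means of 110 and 108. In captured tissue of this kind, fewer cells of a type and less RNA per cell cannot be told apart. The part of these marker differences in the results on lipid genes was not tested. Spdef +/+ replicate 2 stood apart in fat cell transcripts: its summed signal of 6 adipocyte markers was 12904, while replicates 1 and 3 gave 177.9 and 181.0 and the Spdef -/- arrays 86.6 to 164.3. Results that move without this array are given both ways.

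Of the 30 lipid genes tested, 14 rose and 3 fell in Spdef -/- at an adjusted p under 0.05, and 13 were not called. Over all genes tested, 15.8% were called higher and 24.0% lower, 39.7% in all. The signals of the genotypes did not overlap for 17 lipid genes that were higher and 7 that were lower in Spdef -/-, against 22.6% and 32.7% of all genes. The median log2 difference (Spdef -/- minus Spdef +/+) was 0.29 over the 30 genes and -0.06 over all genes tested. The pathways differed in their counts: 10 of 12 cholesterol synthesis enzymes were called higher and 0 lower, the 11 fatty acid genes tested gave 2 calls in each direction, and Fabp5 was the 1 gene called among the 4 tested storage and uptake genes.

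**Figure D1:**
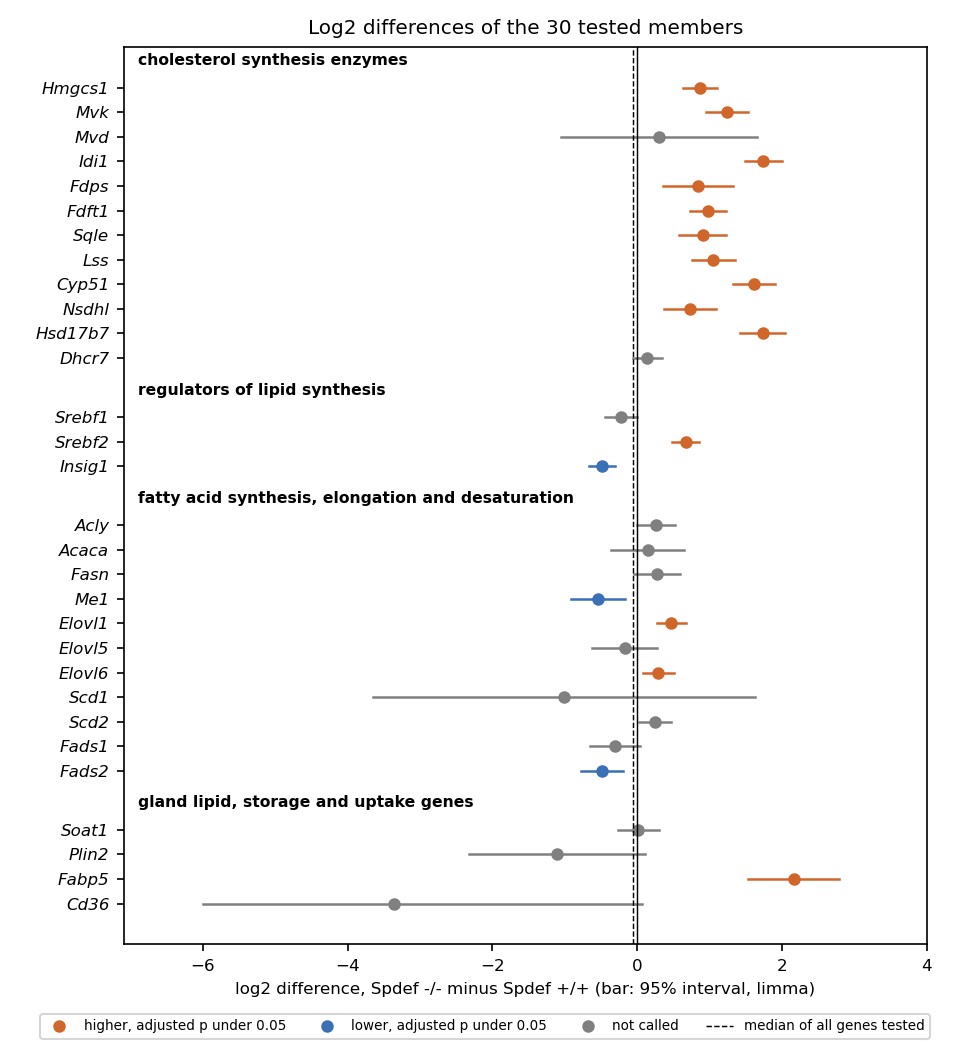
Log2 difference of each of the 30 tested lipid genes (horizontal axis, Spdef -/- minus Spdef +/+, 3 arrays per genotype), grouped by pathway, with its 95% interval from limma as a bar and the median of all genes tested (-0.06) as a dashed line. The cholesterol synthesis enzymes lie to the right of 0, from 0.14 for Dhcr7 to 1.75 for Idi1, Fabp5 is the rightmost point at 2.16, and Scd1, Plin2 and Cd36 have wide intervals.

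Most of the 12 enzymes of cholesterol synthesis were called higher in Spdef -/-, from Hmgcs1, the earliest of them in the pathway, onward. Hmgcs1, the synthase that makes HMG-CoA, had signals of 2912, 2541 and 2365 in Spdef +/+ and 4874, 4577 and 4809 in Spdef -/-. All 3 Spdef -/- arrays lay above all 3 Spdef +/+ arrays, with a 1.83-fold difference (log2 difference 0.87 ± 0.10 SE, adjusted p = 0.00129, limma). Mevalonate kinase, Mvk, gave 118, 93.2 and 118 in Spdef +/+, where it was Present on 2 arrays, and 236, 278 and 262 in Spdef -/-. Its groups were apart by 2.37-fold (log2 difference 1.24 ± 0.12 SE, adjusted p = 0.000847, limma). Idi1, the isomerase that makes the reactive isoprenoid unit, gave 619, 498 and 550 against 1995, 1769 and 1816. The lowest Spdef -/- array was thus far above the highest Spdef +/+ array, and the 3.36-fold rise was the largest of the 12 enzymes by their brightest probe sets (log2 difference 1.75 ± 0.11 SE, adjusted p = 0.000164, limma). Fdps, which joins isoprenoid units into farnesyl diphosphate, gave 1378, 924 and 1352 against 2634, 2036 and 1836, a 1.79-fold rise (adjusted p = 0.0181, limma).

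Mvd, the decarboxylase between Mvk and Idi1, depended on the probe set. Its brightest probe set gave 178, 323 and 106 in Spdef +/+ and 145, 482 and 165 in Spdef -/-. The groups overlapped, and replicate 2 was the highest array in each (log2 difference 0.31, 95% interval -1.05 to 1.66, adjusted p = 0.692, limma). The dimmer probe set of the same gene gave 93.1, 74.3 and 77.4 against 299, 267 and 306, with no overlap and a 3.57-fold rise (adjusted p = 0.000299 over 21727 probe sets tested singly, limma).

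The enzymes from squalene to cholesterol followed the same direction. Fdft1, the squalene synthase, had signals of 1516, 1219 and 1333 in Spdef +/+ and 2673, 2543 and 2782 in Spdef -/-, a 1.97-fold rise (log2 difference 0.98 ± 0.10 SE, adjusted p = 0.00101, limma). Squalene epoxidase, Sqle, gave 1192, 911 and 1066 against 2150, 2073 and 1704, a 1.87-fold rise (adjusted p = 0.00353, limma). Lss, which closes the ring to lanosterol, gave 359, 362 and 295 against 792, 673 and 645, a 2.08-fold rise (adjusted p = 0.00141, limma). In each of these 3 genes the Spdef -/- arrays lay wholly above the Spdef +/+ arrays.

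Cyp51, the enzyme that removes the first methyl group from lanosterol, gave 835, 613 and 684 in Spdef +/+ and 2225, 2147 and 2120 in Spdef -/-. The 3 Spdef -/- arrays were close to each other and 3.07-fold above the Spdef +/+ arrays (log2 difference 1.62 ± 0.12 SE, adjusted p = 0.000375, limma). Hsd17b7, the reductase of the sterol ketone intermediate, gave 200, 191 and 159 against 665, 634 and 529. Its 3.33-fold rise was the second largest of the 12 enzymes by their brightest probe sets (log2 difference 1.73 ± 0.13 SE, adjusted p = 0.000368, limma). Nsdhl, the dehydrogenase of the same demethylation complex, rose 1.66-fold, from 802, 643 and 809 to 1446, 1259 and 1049 (adjusted p = 0.0103, limma). Dhcr7, the reductase of the final step, was the exception among the late enzymes. Its signals of 960, 950 and 1022 and of 1028, 1056 and 1155 did not overlap but differed by 1.10-fold, which was not called (log2 difference 0.14, 95% interval -0.05 to 0.34, adjusted p = 0.208, limma).

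Taken per array, the mean log2 signal of the 12 enzymes, relative to the Spdef +/+ mean, was 0.13, -0.05 and -0.08 on the Spdef +/+ arrays and 1.04, 1.10 and 0.91 on the Spdef -/- arrays. Each Spdef -/- array thus lay above each Spdef +/+ array. The count of 10 enzymes called higher was also 10 without Spdef +/+ replicate 2. Of the 12 enzymes, 7 had more than 1 tested probe set, and all their tested probe sets were called higher singly except the brightest of Mvd.

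**Figure D2:**
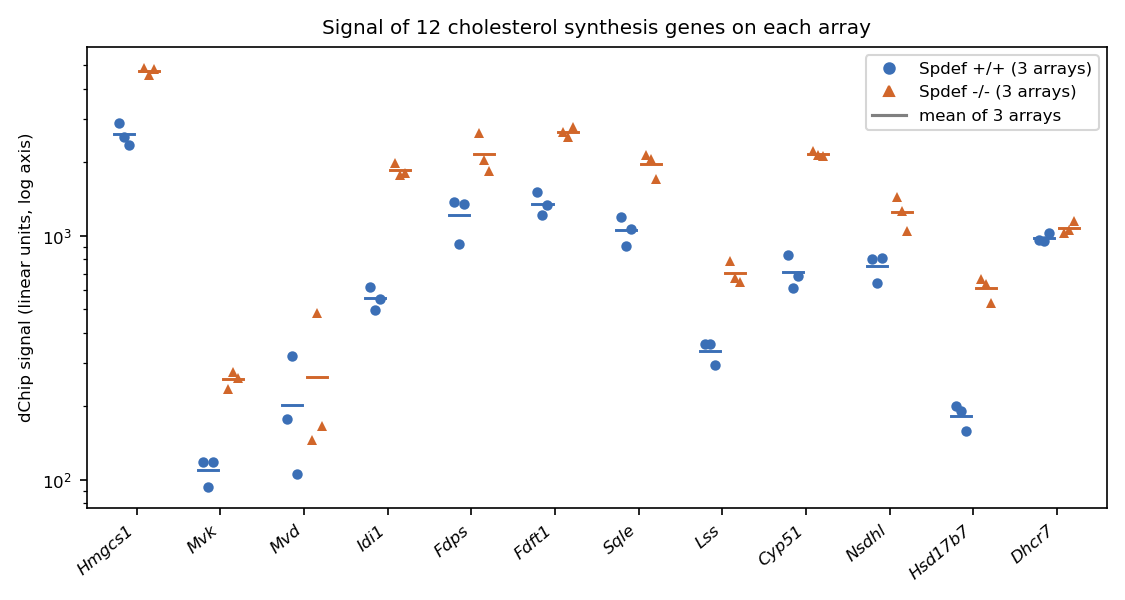
dChip signal (vertical log axis, linear units) of the 12 cholesterol synthesis genes on each of the 3 Spdef +/+ arrays (circles) and 3 Spdef -/- arrays (triangles), in pathway order, with the group means as bars. The Spdef -/- arrays lie above the Spdef +/+ arrays without overlap in 11 of the 12 genes, and in Mvd the groups overlap; levels of different genes come from different probes and are not comparable.

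Promoter sequences are shown for the 3 enzymes with the largest rises by their brightest probe sets (Idi1, Hsd17b7 and Cyp51), for Hmgcs1 at the head of the pathway, and for Insig1, the regulator that fell. They cover the 250 bases before the transcription start, on the strand of the gene, and were taken from RefSeq annotation of GRCm38.p6. Capitals mark the motifs searched on both strands: CCAAT (read as ATTGG on the other strand), the box bound by NF-Y, TCACNCCAC, a form of the sterol regulatory element bound by SREBP, and CACGTG, the E-box. Hmgcs1 lies at chr13:119690101-119690350 on the plus strand, Idi1 at chr13:8885356-8885605 on the plus strand, Cyp51 at chr5:4104698-4104947 on the minus strand, Hsd17b7 at chr1:169969206-169969455 on the minus strand, and Insig1 at chr5:28071162-28071411 on the plus strand.
Hmgcs1: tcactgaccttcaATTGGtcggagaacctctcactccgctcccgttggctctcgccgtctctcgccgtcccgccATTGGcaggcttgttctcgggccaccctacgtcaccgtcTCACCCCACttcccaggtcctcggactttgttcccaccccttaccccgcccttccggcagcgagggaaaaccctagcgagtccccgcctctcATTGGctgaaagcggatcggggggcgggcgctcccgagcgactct
Idi1: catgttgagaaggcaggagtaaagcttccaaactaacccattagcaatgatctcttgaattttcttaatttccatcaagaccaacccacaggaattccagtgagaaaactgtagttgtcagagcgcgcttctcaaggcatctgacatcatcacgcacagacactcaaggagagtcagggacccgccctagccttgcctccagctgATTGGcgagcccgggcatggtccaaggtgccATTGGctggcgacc
Cyp51: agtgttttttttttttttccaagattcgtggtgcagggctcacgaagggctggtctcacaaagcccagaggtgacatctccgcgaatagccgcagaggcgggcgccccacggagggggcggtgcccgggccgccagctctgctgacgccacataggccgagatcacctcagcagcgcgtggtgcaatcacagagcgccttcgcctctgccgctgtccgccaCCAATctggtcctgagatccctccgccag
Hsd17b7: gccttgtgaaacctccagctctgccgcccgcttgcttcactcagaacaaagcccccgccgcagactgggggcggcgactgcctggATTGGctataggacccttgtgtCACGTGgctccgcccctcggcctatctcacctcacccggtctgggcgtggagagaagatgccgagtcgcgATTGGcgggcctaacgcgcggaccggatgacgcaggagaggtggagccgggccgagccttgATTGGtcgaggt
Insig1: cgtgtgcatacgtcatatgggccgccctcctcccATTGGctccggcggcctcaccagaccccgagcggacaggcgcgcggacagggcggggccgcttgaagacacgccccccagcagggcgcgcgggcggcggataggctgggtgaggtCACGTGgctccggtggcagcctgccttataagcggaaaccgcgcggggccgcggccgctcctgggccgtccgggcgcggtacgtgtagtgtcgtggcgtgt

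Hmgcs1 held 3 NF-Y boxes and the sterol regulatory element, Idi1 2 NF-Y boxes, Cyp51 1, Hsd17b7 3 with an E-box, and Insig1 1 with an E-box. Promoters were given for 27 of the 35 lipid genes, among them 9 of the 12 cholesterol enzymes, without Fdps, Fdft1 and Sqle. The NF-Y box was in at least 1 promoter of 9 of these 9 enzymes and in 81.8% of their 11 starts, against 33.8% of the 32851 starts and 37.5% of the 27025 genes of the table. It was also in 4 of 4 regulators, 4 of 5 storage and uptake genes (83.3% of their starts), 4 of 9 fatty acid genes, and 7 of 12 further sterol genes (43.8% of their starts), so it was not particular to these enzymes. Hmgcs1 was the 1 cholesterol enzyme with the sterol element as spelled here, which 1.05% of all starts held. The E-box was in 2 of the 9 enzymes and in 6.02% of all starts. A match describes letters in the window, and binding was not measured.

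Among the regulators of the pathway the members went different ways. Srebf2, which encodes SREBP-2, the main activator of cholesterol synthesis genes, had signals of 690, 654 and 709 in Spdef +/+ and 1066, 1135 and 1067 in Spdef -/-. The groups were apart by 1.59-fold (log2 difference 0.67 ± 0.08 SE, adjusted p = 0.00129, limma). A dimmer probe set of Srebf2 gave 477, 475 and 449 against 421, 478 and 360, which overlapped (log2 difference -0.16, adjusted p = 0.336 over probe sets tested singly, limma). The mean of both probe sets was not called either (log2 difference 0.25, adjusted p = 0.0615, limma), so the rise of Srebf2 rests on its brighter probe set.

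Insig1, which holds SREBP in the endoplasmic reticulum and is itself a known SREBP target, moved opposite to the enzymes. Its signals were 3089, 3032 and 3027 in Spdef +/+ and 2204, 2286 and 2077 in Spdef -/-. Each Spdef -/- array was below each Spdef +/+ array, and Insig1 fell 1.39-fold (log2 difference -0.48 ± 0.07 SE, adjusted p = 0.00383, limma). Srebf1, which encodes the SREBP-1 forms that favour fatty acid genes, gave 1410, 1298 and 1259 against 1164, 1042 and 1196, apart but not called (log2 difference -0.22, 95% interval -0.44 to -0.01, adjusted p = 0.0943, limma). Pparg, the receptor that drives fat cell and sebocyte differentiation, was Present on Spdef +/+ replicate 2 only and was not tested. Its signals were 47.5, 115 and 68.8 in Spdef +/+ and 15.8, 16.4 and 18.8 in Spdef -/-.

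Other genes of sterol synthesis and its control were read from a list of 17, of which 15 were tested. Of these, 9 (60.0%) were called higher and 0 lower, against 15.8% and 24.0% of all genes. The median log2 difference of the list was 0.39. Pmvk, the kinase that follows Mvk, gave 232, 241 and 238 in Spdef +/+ and 555, 602 and 578 in Spdef -/-. It rose 2.44-fold with no overlap (adjusted p = 0.000155, limma). Acat2, the thiolase of the first step, rose 1.91-fold (adjusted p = 0.00154, limma), and Stard4, a carrier of cholesterol in the cytosol, rose from 544, 438 and 498 to 997, 877 and 1085 (adjusted p = 0.00157, limma). Msmo1, a demethylating oxidase of the late pathway picked after its values were seen, rose 2.43-fold (adjusted p = 0.00492, limma). The mean log2 signal of the 15 genes relative to Spdef +/+ was -0.08 to 0.08 on the Spdef +/+ arrays and 0.51 to 0.59 on the Spdef -/- arrays.

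Of the genes of cholesterol efflux and LXR response, 8 were tested from a list of 9, with 0 called higher and 3 (37.5%) lower and a median log2 difference of -0.25. Over all genes 24.0% were called lower, and the count of 3 was not stable. Abca1, the pump that exports cholesterol from cells, gave 1104, 1283 and 987 in Spdef +/+ and 736, 643 and 677 in Spdef -/-. It fell 1.63-fold without overlap (log2 difference -0.71 ± 0.12 SE, adjusted p = 0.00482, limma). Npc2, which carries cholesterol out of lysosomes, fell 1.27-fold (adjusted p = 0.0436, limma), and Mylip, a ubiquitin ligase induced by LXR, fell 1.26-fold (adjusted p = 0.0467, limma). Without Spdef +/+ replicate 2 Abca1 was the only one of these 3 still called, and the count was also 1 with each array centred on its median, with no filter, with the replicate block, and without any 1 of the Spdef -/- arrays or Spdef +/+ replicate 1. With array weights, and without Spdef -/- replicate 3, 1 gene of the list was called higher.

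Of 13 fatty acid synthesis genes listed, 11 were tested, 2 rose, 2 fell and 7 were not called, with a median log2 difference of 0.15. The 18.2% called in each direction is near the 15.8% and 24.0% of all genes. By their brightest probe sets, the core enzymes were among those not called. Acly, which makes cytosolic acetyl-CoA from citrate, had signals of 1668, 1742 and 1602 in Spdef +/+ and 2036, 1756 and 2241 in Spdef -/- (log2 difference 0.26, 95% interval 0.00 to 0.52, adjusted p = 0.0983, limma). A dimmer probe set of Acly, at 160, 147 and 164 against 256, 258 and 189, was called higher singly (log2 difference 0.57, adjusted p = 0.0238, limma). Fasn, the fatty acid synthase, gave 1532, 1985 and 1520 against 2135, 2096 and 1830, which overlapped through Spdef +/+ replicate 2 (log2 difference 0.28, adjusted p = 0.141, limma). Without that array the Fasn difference was 0.40 and was called (adjusted p = 0.0412, limma). Acaca, the carboxylase that commits carbon to fatty acids, was dim at 38.5 to 53.7 and 41.7 to 67.2 and overlapped (log2 difference 0.15, adjusted p = 0.602, limma).

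Among the elongases, which lengthen fatty acid chains, Elovl1, specific to very long saturated chains, gave 2038, 2333 and 2179 in Spdef +/+ and 3147, 2943 and 2989 in Spdef -/-. The groups were apart, and Elovl1 rose 1.39-fold (log2 difference 0.47 ± 0.08 SE, adjusted p = 0.00596, limma). Elovl6, which acts on shorter saturated chains, rose 1.23-fold, from 875, 905 and 797 to 1038, 1117 and 1008 (adjusted p = 0.0353, limma). Its call was lost without Spdef +/+ replicate 2 (adjusted p = 0.0564, limma), and its second probe set gave a log2 difference of -0.01. Of the 5 tested probe sets of Elovl6, 0 were called singly. The brightest had an adjusted p of 0.0506 over probe sets tested singly (limma). Elovl5, an elongase of polyunsaturated chains, gave 3161, 4619 and 2931 against 3513, 2971 and 2866 and overlapped (log2 difference -0.17, adjusted p = 0.494, limma). Elovl3 was Present on Spdef +/+ replicate 2 only, at 43.3, and lay between 15.8 and 33.2 on the other 5 arrays. Elovl4 was Absent on all 6 arrays, so neither was tested.

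The desaturases and the malic enzyme gave both calls in the lower direction. Fads2, the first desaturase of polyunsaturated fatty acid synthesis, gave 251, 221 and 229 in Spdef +/+ and 145, 192 and 165 in Spdef -/-. It fell without overlap (log2 difference -0.49 ± 0.12 SE, adjusted p = 0.0202, limma), while a much dimmer probe set of Fads2 overlapped (log2 difference 0.15). Its partner Fads1 was at 227 to 323 and 205 to 219 and was not called (log2 difference -0.30, adjusted p = 0.140, limma). Me1, the malic enzyme that supplies NADPH for lipid synthesis, was read from a probe set that the deposited annotation also ties to similar sequences, and gave 420, 463 and 357 against 335, 239 and 284 and fell 1.45-fold (log2 difference -0.54 ± 0.15 SE, adjusted p = 0.0338, limma). Without Spdef +/+ replicate 2 the difference was -0.45 and not called (adjusted p = 0.101, limma). A dimmer probe set of Me1 gave 274, 371 and 221 against 273, 220 and 224, which overlapped. It was not called singly (log2 difference -0.25, adjusted p = 0.372 over probe sets tested singly, limma).

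Of the stearoyl-CoA desaturases, which put the first double bond into saturated chains, Scd2 had signals of 5706, 5643 and 5027 in Spdef +/+ and 6753, 5998 and 6754 in Spdef -/-, apart but not called (log2 difference 0.25, adjusted p = 0.0702, limma). Its 2 dimmer probe sets were called higher singly, with log2 differences of 0.75 and 0.71 (adjusted p = 0.0131 and 0.0288 over probe sets tested singly, limma). Scd1 gave 149, 3573 and 279 in Spdef +/+ and 261, 247 and 283 in Spdef -/-. The array of Spdef +/+ replicate 2 was thus far above the next, and the groups overlapped (log2 difference -1.01 ± 1.10 SE, adjusted p = 0.497, limma). Without that array the Scd1 difference was 0.37, of the opposite sign, and not called (adjusted p = 0.339, limma).

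Fabp5, the epidermal fatty acid binding protein that carries long-chain fatty acids in the cytosol, had the largest rise of the 30 genes. Its signals were 386, 698 and 765 in Spdef +/+ and 2301, 2782 and 2891 in Spdef -/-. Every Spdef -/- array was above every Spdef +/+ array by a wide margin, and the rise was 4.48-fold (log2 difference 2.16 ± 0.26 SE, adjusted p = 0.00162, limma). Only 0.790% of all genes tested had a larger rise. A further probe set, tied to several gene IDs, that of Fabp5 among them, and so left out of the gene tests, gave 1513, 2319 and 2542 against 6570, 7556 and 9286, also apart. The deposited annotation lists Fabp5-like copies for that probe set, so signal of copies and of Fabp5 cannot be told apart there. The authors' deposited table of 153 probe sets listed Fabp5 with a fold of 4.31, a lower bound of 3.19 and p = 0.001614. It was the 1 gene of the 35 in the authors' deposited table, which from the sterol lists also held a dim probe set of Stard4 with a fold of 4.16. That table was cut by fold and by unadjusted p, unlike the calls made here. A gene missing from it can therefore still be called here.

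Plin2 and Cd36 were highest on the array rich in fat cell transcripts, and the part of those transcripts in both genes was not tested. Plin2, a coat protein of lipid droplets, had signals of 503, 1903 and 507 in Spdef +/+ and 333, 372 and 396 in Spdef -/-. The groups were apart, with Spdef +/+ replicate 2 well above the rest, and the difference was not called (log2 difference -1.10 ± 0.51 SE, adjusted p = 0.129, limma). Without that array Plin2 was called lower with a log2 difference of -0.46 (adjusted p = 0.0288, limma). Cd36, a receptor for fatty acid uptake, gave 19.7, 967 and 27.3 in Spdef +/+, where it was Present on 3 arrays, and 5.32, 11.5 and 7.90 in Spdef -/-, where it was Absent on 3. The log2 difference was -3.36 ± 1.43 SE and not called (adjusted p = 0.106, limma), and without Spdef +/+ replicate 2 it was -1.56 and called (adjusted p = 0.0235, limma). The count of storage and uptake genes called lower thus went from 0 to 2 when that array was left out. Cd36 met the detection rule through its Spdef +/+ arrays alone, and without replicate 2 all its signals were near the detection limit. Its call is therefore not taken as support for a fall.

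Soat1, which esterifies cholesterol for storage, was at 899 to 1029 in Spdef +/+ and 833 to 1075 in Spdef -/- and overlapped (log2 difference 0.02, 95% interval -0.27 to 0.30, adjusted p = 0.933, limma). Of the genes most typical of meibomian and sebaceous wax, Far2, a fatty acyl-CoA reductase, was Absent on all 6 arrays, and Awat2, the wax synthase, had no named probe set. Of 6 further markers of these glands, 4 had a probe set, Mc5r was never Present, and the summed signal was 411 to 456 in Spdef +/+ and 321 to 560 in Spdef -/-. The level of gland markers therefore overlapped between the genotypes.

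**Figure D3:**
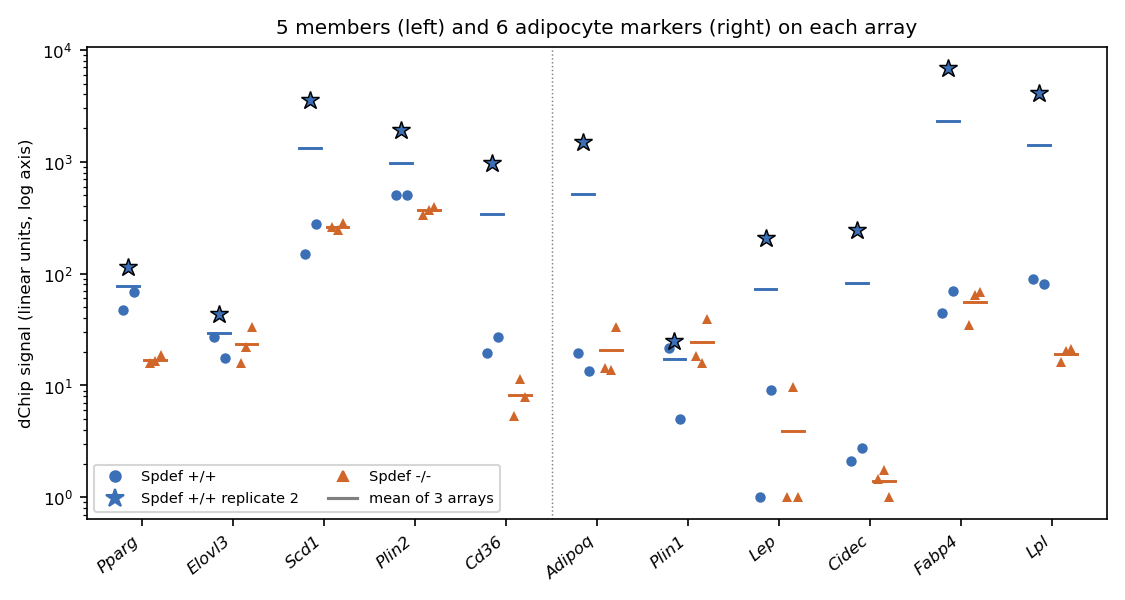
dChip signal (vertical log axis, linear units) of 5 lipid genes (left) and 6 adipocyte markers (right) on each array, with Spdef +/+ as circles, Spdef +/+ replicate 2 as a star, Spdef -/- as triangles and group means as bars. Scd1, Plin2 and Cd36 are highest on the starred array, at 3573, 1903 and 967, as are Fabp4 at 6823 and Lpl at 4093, whereas Plin1 was never Present.

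Fabp4, the fatty acid binding protein of fat cells, had signals of 44.4, 6823 and 70.3 in Spdef +/+ and 34.9, 65.0 and 68.7 in Spdef -/-. Lpl, the lipase that frees fatty acids from lipoproteins, gave 89.1, 4093 and 80.3 against 16.3, 20.5 and 21.1. Adipoq, the fat cell hormone adiponectin, was at 1512 on Spdef +/+ replicate 2 and at 13.4 to 33.5 on the other 5 arrays. Of the 6 adipocyte markers, 5 were Present on at least 1 array. The mean log2 signal of the cholesterol enzymes on Spdef +/+ replicate 2 was -0.05, between the 0.13 and -0.08 of Spdef +/+ replicates 1 and 3. Single enzymes differed: most, Idi1 and Cyp51 among them, were lowest in Spdef +/+ on that array. Mvd and Lss were highest there by their brightest probe sets. The part of the fat cell transcripts in these levels was not tested.

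Further genes of fatty acid synthesis, from a list of 19 with 12 tested, gave 3 higher (25.0%) and 2 lower (16.7%) calls. Over all genes the shares were 15.8% and 24.0%, and the median log2 difference of the list was -0.13. The lower count was 0 without any 1 of the Spdef -/- arrays, without Spdef +/+ replicate 2 and with no filter. Slc25a1, which exports citrate from mitochondria for lipid synthesis, rose 1.61-fold, from 612, 575 and 627 to 974, 1063 and 881 (adjusted p = 0.00264, limma). Acsl4, a ligase that activates arachidonic acid, rose 1.59-fold (adjusted p = 0.00328, limma). Elovl7, a long-chain elongase, rose 1.62-fold (adjusted p = 0.0181, limma) and Hacd1, a dehydratase of the elongation cycle, fell 1.72-fold (adjusted p = 0.0249, limma), and neither was called without Spdef +/+ replicate 2.

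Of 10 tested genes among 20 of gland lipid and lipid droplets, 1 was higher and 3 were lower, with a median log2 difference of -0.17. The shares are near the 15.8% and 24.0% of all genes. Dgat1, which completes triglycerides, rose 1.43-fold, from 316, 350 and 303 to 500.0, 445 and 440 (adjusted p = 0.00683, limma). Plin3, a droplet coat protein, fell 1.47-fold, from 1339, 1367 and 1412 to 984, 863 and 964 (adjusted p = 0.00341, limma). Lpin1 and Gpam, a phosphatase and an acyltransferase of triglyceride synthesis, fell 1.47-fold and 1.39-fold (adjusted p = 0.0333 and 0.0396, limma), and both calls were lost without Spdef +/+ replicate 2.

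Fatty acid oxidation, the opposite process, gave 2 higher and 6 lower calls among 12 genes, with a median log2 difference of -0.34. Of all genes tested, 15.8% were called higher and 24.0% lower. Ehhadh, the bifunctional enzyme of peroxisomal oxidation, had signals of 112, 99.99 and 110 in Spdef +/+ and 43.41, 42.44 and 44.98 in Spdef -/-. The arrays within each genotype were close to each other, and Ehhadh fell 2.46-fold (log2 difference -1.30 ± 0.08 SE, adjusted p = 0.000176, limma). Cpt2, which admits acyl groups to mitochondria, fell 1.33-fold (adjusted p = 0.00609, limma). The nuclear receptor Ppara, which drives oxidation genes, fell 1.64-fold (adjusted p = 0.00926, limma), and its relative Ppard rose 1.54-fold (adjusted p = 0.00770, limma). Without Spdef +/+ replicate 2 the counts were 1 higher and 4 lower.

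**Figure D4:**
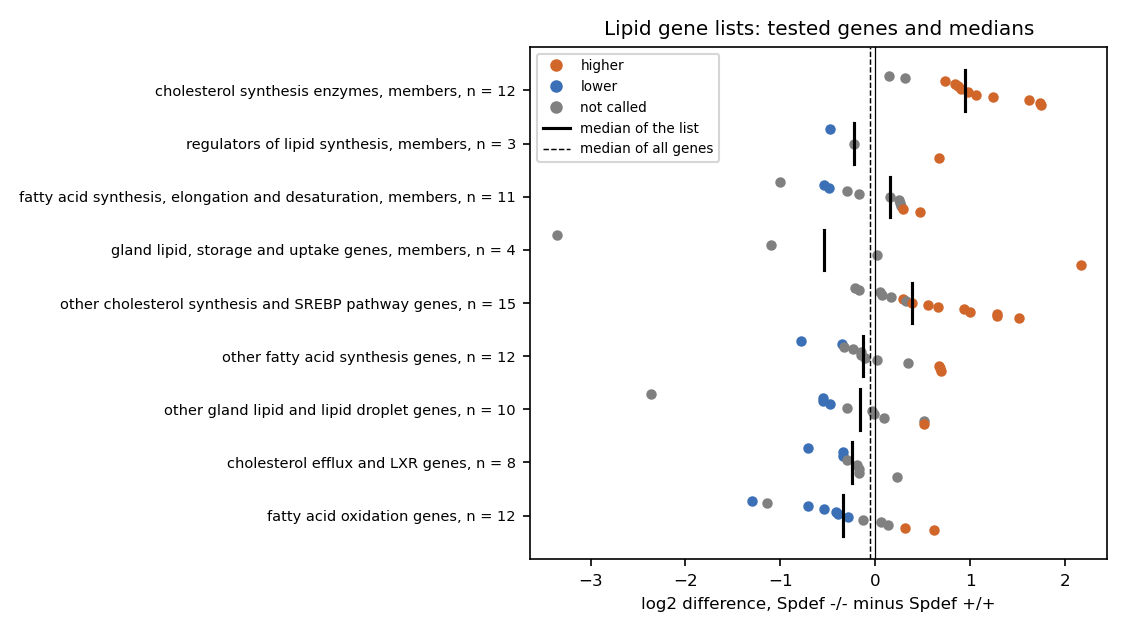
Log2 difference (horizontal axis, Spdef -/- minus Spdef +/+) of each tested gene, by list, coloured by call, with the median of each list as a thick bar and the median of all genes tested (-0.06) as a dashed line. The lists of cholesterol synthesis have medians of 0.94 and 0.39, to the right of the dashed line, and those of efflux and oxidation have medians of -0.25 and -0.34, to its left.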

How the data were processed

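The authors deposited dChip signals, which are linear intensity values with 1 value for each probe set on each array, per the file headers. Array medians are close to each other, so the authors' values were taken as normalized; which method, background correction and detection algorithm they used was not given in the sources used here. Detection calls, which are other, non-numeric values in the deposited sheet, read Present, Marginal or Absent. A comparison table made by the authors gives signed folds and differences, treated as score values, and an unadjusted p-value for 153 probe sets.

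Of 45101 probe sets, 36909 were named for 18096 genes by gene ID or accession through a RefSeq gene table (GRCm38.p6); 585 tied to several genes and 7543 with no match were left out, and 609 were named by the only one of their IDs in that table, Me1 among them. Values below 1 were raised to 1 before taking log2. The test of genotype was limma's (version 3.58.1, R 4.3.3; lmFit, then eBayes; 2-sided, genotype as the single term), with Benjamini-Hochberg adjustment over 11899 genes and a threshold of 0.05. Folds are antilogs of the log2 differences, and precision is limited by how few arrays there are (median residual SD 0.139, log2). Signals within a genotype correlated at 0.978 to 0.989 and between genotypes at 0.926 to 0.946, and Spdef -/- arrays had 23290 to 23370 probe sets Present against 24589 to 24833 (exact permutation p = 0.1, which 3 and 3 arrays cannot go below). The procedure was tested on simulated data.

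The members and lists were chosen with earlier results of these data known. The values printed are those of members called with a fold of at least 1.5 or with the smallest p on each array, values or ranges of other members, and up to 4 called genes per further list with the smallest p; Msmo1 and the list of ceramide genes were chosen after values were seen, and some genes of the further lists are not reported here. Alternatives covered filter, scaling, floor, pseudocount, variance model, array weights, choice of probe set, replicate block, the second deposited signal table (0 values differed) and each array left out. Promoters were searched over the 250 bases before the start, with the 50 after it left out.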

Additional observations from a re-analysis of the deposited data

How the results depend on the processing

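Of the 17 called lipid genes, 12 kept their direction and their call under all 18 alternatives, among them 9 of the 10 cholesterol enzymes, Insig1, Elovl1 and Fabp5. Not every alternative could change a result. The second deposited signal table held the same values. Mvk, Sqle, Lss, Insig1 and Fabp5 had 1 tested probe set each, so the choice of probe set could not move their differences. Fdps lost its call with no filter on detection (adjusted p = 0.0534, limma). Me1 and Elovl6 each lost theirs in 8 alternatives, Fads2 in 6 and Srebf2 in 1, beside the reversals given next. With the second-brightest probe set the log2 difference turned to -0.16 for Srebf2, -0.012 for Elovl6, 0.15 for Fads2 and 0.32 for Scd1. Leaving out 1 array turned the sign of 5 genes that were not called. Mvd ranged from -0.24 (without Spdef -/- replicate 2; -0.08 without Spdef +/+ replicate 3) to 0.72, Acaca from -0.061 (without Spdef -/- replicate 1) to 0.28, and Elovl5 from -0.30 to 0.029 (without Spdef +/+ replicate 2). Scd1 ranged from -1.93 to 0.37 (without Spdef +/+ replicate 2), and Soat1 from -0.072 (without Spdef -/- replicate 1; -0.020 and -0.013 without Spdef +/+ replicates 2 and 3) to 0.11. The causes were not tested.

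Over all genes, the counts with 1 array left out were 1277 to 1825 higher and 1850 to 2734 lower, the lowest in each without Spdef +/+ replicate 1. Those for the lipid genes were 13 to 14 higher and 1 to 4 lower. The cholesterol enzymes called higher numbered 9 to 11 over all alternatives. The lower count of lipid genes was 1 with probe sets averaged per gene, with the second-brightest probe set, with the replicate block and without Spdef +/+ replicate 1. The lower count of further gland and droplet genes was 1 with no filter on detection and 1 to 3 with 1 array left out. The higher count of ceramide genes was 4 with the replicate block. The lower count of efflux genes was 1 with centred arrays, no filter or the replicate block, and 1 to 2 with 1 array left out. Ranges with 1 array left out were 8 to 10 for further sterol genes called higher, 2 to 4 higher and 0 to 3 lower for further fatty acid genes, 3 to 6 higher and 3 to 5 lower for ceramide genes, and 4 to 6 for oxidation genes called lower.

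Deviations of same-numbered arrays correlated at -0.013, -0.090 and -0.084, so the numbers were not taken as pairs. With the replicate number as a block, 1473 genes were higher and 2200 lower, with 13 and 1 of the lipid genes. Genes near the detection limit, such as Pparg, Cd36, Elovl3, Acaca and Ugcg, are limited by signal over background.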

Other observations

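Ceramides and related barrier lipids, which share the acyl chains made by the elongases, were examined in a list of 28 genes that was chosen after other values were seen. Of 21 tested, 7 were higher and 4 lower, against 15.8% and 24.0% of all genes, with a median log2 difference of 0.15. The genes that fell included 2 sphingomyelinases, which release ceramide: Smpd3 gave 162, 160 and 152 in Spdef +/+ and 61.8, 70.3 and 89.5 in Spdef -/- (2.16-fold, adjusted p = 0.00189, limma). Smpd1 gave 496, 472 and 524 against 301, 278 and 245 (1.81-fold, adjusted p = 0.00142, limma). Kdsr, a reductase of new ceramide synthesis, fell 1.75-fold (adjusted p = 0.00752, limma), and Cers6, a ceramide synthase, fell 1.42-fold (adjusted p = 0.0181, limma).

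Among those that rose, Sptssb, a subunit of the first enzyme of sphingolipid synthesis, gave 1927, 1464 and 1868 in Spdef +/+ and 3362, 3347 and 2403 in Spdef -/- (1.73-fold, adjusted p = 0.0131, limma). Ugcg, which makes glucosylceramide, gave 24.3, 37.5 and 30.3 against 51.2, 47.8 and 64.2 (1.78-fold, adjusted p = 0.0139, limma). These signals were dim, so the size of the rise is uncertain. With a pseudocount of 32 it was 1.38-fold and still called (adjusted p = 0.0127, limma). Sult2b1, which makes cholesterol sulfate in stratified epithelia, gave 69.4, 126 and 131 against 149, 240 and 340, a 2.20-fold rise (adjusted p = 0.0457, limma). In each of these 3 genes the genotypes did not overlap. Without Spdef +/+ replicate 2 the counts of the list were 4 higher and 3 lower, and Sult2b1 (adjusted p = 0.0719, limma) and Cers6 (adjusted p = 0.0589, limma) were no longer called. The higher count was 3 without Spdef +/+ replicate 1 and 4 without Spdef +/+ replicate 3 or Spdef -/- replicate 1. Sult2b1 lost its call without each array in turn except Spdef -/- replicate 1.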
